A study of Homo sapiens with 12 samples.

Results

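Polycomb repressive complex 2 (PRC2) was followed here through the transcripts of 10 genes, EZH1, EZH2, EED, SUZ12, RBBP4, RBBP7, JARID2, AEBP2, PHF19 and MTF2. They were chosen by name, as the rows carrying these gene symbols among the 58233 genes of a table of RPKM values (reads scaled by the length of the gene model and by the mapped reads of the library), and all 10 were found. The cells were HL-60, an established human acute myeloid leukaemia (AML) line described in the labels as wild type. There were 12 polyA RNA-seq libraries, 3 in each of 4 groups: untreated cells, cells treated for 3 h with 100 nM all-trans retinoic acid (ATRA), cells treated for 3 h with 500 nM of the CDK4/6 inhibitor palbociclib, and cells treated for 3 h with both at these doses, called the combination. No vehicle is named for the untreated group. The methods call the libraries of a condition triplicates and speak of independent experiments for the data in general, but no label ties a library to a culture or day, so p-values measure the spread between these libraries, which may in part be technical. The labelled myeloid identity was visible in the transcripts: 8 of 9 myeloid marker genes were at 5 RPKM or more in every library (the exception, ELANE, was at 0 to 1), and 16 of 17 markers of other lineages were listed at 0 in all 12 libraries. The exception was the B cell marker CD79A, at 1 RPKM in each library with ATRA and at 0 in the others.

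PRC2 places methyl groups on lysine 27 of histone H3, the chromatin mark of Polycomb-silenced genes. EZH2 and its relative EZH1 are the alternative catalytic subunits, EED binds the methylated histone tail and stimulates the enzyme, SUZ12 is the scaffold of the complex, and RBBP4 and RBBP7 are histone-binding proteins that also serve in other chromatin complexes. PHF19 and MTF2 are Polycomb-like proteins that define one form of the complex, and JARID2 and AEBP2 define the other. EZH2 is expressed mainly in dividing cells, where E2F transcription factors, held in check by the retinoblastoma protein (RB), are known to drive it. CDK4 and CDK6 phosphorylate RB, and retinoic acid acts through nuclear receptors and drives HL-60 cells to differentiate.

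Because E2F factors read short DNA words, the promoters of the members are shown for those words first. RefSeq promoter windows (GRCh38.p14, 250 bases before to 50 after a start) were matched for all 10 genes, in 15 windows. One of 4 E2F words, TTTCCCGC, TTTCGCGC, TTTGCCGC or TTTGGCGC, searched on both strands, was in a window of 6 members: EZH1, EZH2, SUZ12, AEBP2, PHF19 and MTF2. Of the 15 member windows 6 held one, and of all 35116 windows 3.31% did. These 6 stretches of 30 bases, each read 5′ to 3′ on the strand of its gene with the word in capitals, show where the letters lie:

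EZH2 (chr7:148884272-148884301, minus strand): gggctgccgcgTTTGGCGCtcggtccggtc

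SUZ12 (chr17:31936807-31936836, plus strand): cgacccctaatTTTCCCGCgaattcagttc

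EZH1 (chr17:42745137-42745166, minus strand): gcggggttttgGCGGCAAAtgacagtagtg

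AEBP2 (chr12:19440438-19440467, plus strand): caaggcgacgtTTTGCCGCgatccccctgc

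PHF19 (chr9:120877322-120877351, minus strand): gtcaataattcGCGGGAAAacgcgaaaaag

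MTF2 (chr1:93079277-93079306, plus strand): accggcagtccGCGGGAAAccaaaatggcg

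The word began at base 2 after the start in EZH2 and at base 6 after it in MTF2. It lay 189 bases before the start in SUZ12, 152 in PHF19, 150 in AEBP2 and 115 in EZH1. The 4 members with no such letters in their windows were EED, RBBP4, RBBP7 and JARID2. Further motifs of cell-cycle promoters were searched on both strands. The CCAAT word was in a window of 7 members (EED, EZH2, JARID2, PHF19, RBBP4, RBBP7 and SUZ12). Of the 15 member windows 10 held it, as did 34.6% of all windows. The CHR words TTTGAA and TTCGAA were in the window of SUZ12 alone among the members and in 16.4% of all windows. For the retinoic acid receptor, the word AGGTCA, its variant AGTTCA, the word GGGTCA and its variant GGTTCA were searched on both strands as a pair in the same direction. Such a pair with 5 bases between its words was in 0.0883% of all windows, one with 2 bases between them was in 0.0399%, and neither was in a window of a member, JARID2 included. These matches describe letters in short windows and carry no measurement of binding.

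The catalytic subunit and the scaffold are shown at greater length because they had the lowest palbociclib to untreated ratios among the members. In the 250 bases before the EZH2 start (chr7:148884292-148884541, minus strand), the capitals mark 4 CCAAT words, of which 3 are on the other strand, at 94, 66, 47 and 13 bases before the start:

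EZH2: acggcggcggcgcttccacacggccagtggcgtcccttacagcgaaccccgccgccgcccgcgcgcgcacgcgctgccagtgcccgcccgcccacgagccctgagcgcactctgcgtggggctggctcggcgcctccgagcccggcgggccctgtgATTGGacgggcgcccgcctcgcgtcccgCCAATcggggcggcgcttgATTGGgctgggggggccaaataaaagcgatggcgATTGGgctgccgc

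In the 250 bases before the SUZ12 start (chr17:31936757-31937006, plus strand), the capitals mark the E2F word, a CHR word on the other strand 173 bases before the start, and a CCAAT word 31 bases before it:

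SUZ12: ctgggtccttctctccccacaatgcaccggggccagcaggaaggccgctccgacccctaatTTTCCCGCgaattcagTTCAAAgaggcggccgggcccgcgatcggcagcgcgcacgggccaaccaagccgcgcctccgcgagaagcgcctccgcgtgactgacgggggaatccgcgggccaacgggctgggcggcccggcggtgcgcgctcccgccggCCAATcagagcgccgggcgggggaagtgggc

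The members differed widely in level in untreated cells. RPKM is scaled by the length of the gene model, so levels can be set side by side between genes. The lengths used are not given, and the order between genes depends on them. The histone-binding pair RBBP7 (31.0 ± 1.0 RPKM, SD, n = 3) and RBBP4 (29.3 ± 1.15) and the scaffold SUZ12 (27 ± 1.73) were the most abundant, and neighbours in that order overlapped between libraries. EZH2 came next at 23.7 ± 0.577 RPKM, below every SUZ12 library and above the Polycomb-like proteins MTF2 (16.3 ± 1.15) and PHF19 (13.7 ± 0.577), which did not overlap each other. EED (7.0, the same in all 3 libraries), JARID2 (6.67 ± 0.577) and AEBP2 (6.33 ± 1.15) overlapped. EZH1 was lowest, at 4 RPKM in each untreated library. Among genes at 1 RPKM or more in untreated cells, EZH2 was above 81.8% and EZH1 above 36.4%. The values were deposited as whole numbers, so 1 step is 4.23% of the untreated EZH2 mean and 25.0% of that of EZH1.

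**Figure D1:**
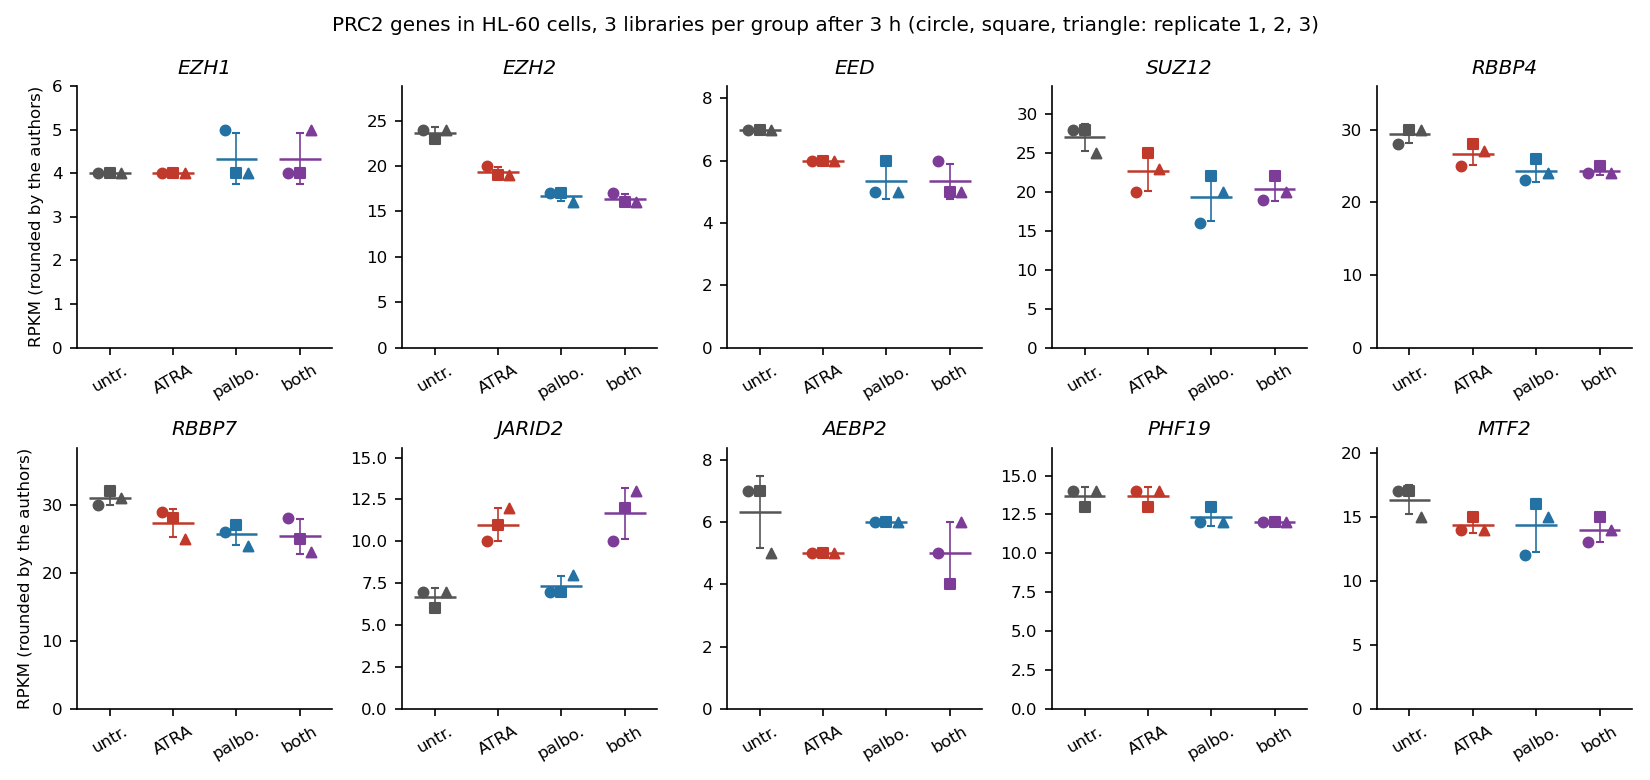
RPKM (rounded to whole numbers by the authors) of the 10 PRC2 genes in each of the 12 libraries, grouped by treatment (both: the combination), with each group's mean as a horizontal line and its SD as an error bar, every vertical axis starting at 0. EZH2 lay at 23 to 24 RPKM untreated and 16 to 17 with palbociclib or the combination, whereas JARID2 lay at 6 to 7 untreated and 10 to 13 wherever ATRA was present.

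Each treatment was compared with untreated cells, and the combination with each drug alone, by limma on log2(RPKM + 0.1), which understates the change of low genes. Changes are given as log2 fold changes with the standard error (SE) and a p-value adjusted over the 7820 genes with at least 5 RPKM in at least 3 libraries. A member is said to have risen or fallen where the adjusted p was under 0.05, and those under 0.001 are named. Of the 10 members, 9 were tested. The exception was EZH1, which reached 5 RPKM in 2 libraries only. In bulk RNA, fewer cells expressing a gene and less of its RNA per cell cannot be told apart.

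EZH2, the main catalytic subunit, was lower in all 3 treatments. Its 3 libraries were at 24, 23 and 24 RPKM untreated, at 20, 19 and 19 with ATRA, at 17, 17 and 16 with palbociclib, and at 17, 16 and 16 with the combination. No treated library overlapped the untreated ones, and the palbociclib and combination libraries lay below all ATRA libraries. EZH2 fell by 0.29 on the log2 scale with ATRA (SE 0.0516, limma adjusted p = 0.00264), by 0.50 with palbociclib (adjusted p = 0.000452) and by 0.53 with the combination (adjusted p = 3.27e-05). In linear terms the group mean differed from the untreated mean by -18.3% with ATRA, by -29.6% with palbociclib and by -31.0% with the combination. Rounding to whole numbers alone would allow -22.1 to -14.4%, -33.1 to -25.9% and -34.5 to -27.3%. The palbociclib call at 0.001 did not outlast the loss of any 1 library (adjusted p = 0.00206 to 0.00374, each still under 0.05), whereas the combination call at 0.001 held in all 6 such fits (8.26e-05 to 0.000299). The study drew EZH2 and SUZ12, from these same libraries, among the genes lowered by palbociclib on top of ATRA, so their direction in that contrast is not independent evidence.

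EZH1, the second catalytic subunit, stayed at 4 or 5 RPKM. It was at 4 RPKM in all untreated and all ATRA libraries, at 5, 4 and 4 with palbociclib, and at 4, 4 and 5 with the combination. With the filter lowered to 1 RPKM so that it could be fitted, its log2 change was 0 with ATRA (limma adjusted p = 1), 0.105 with palbociclib (adjusted p = 0.753) and 0.105 with the combination (adjusted p = 0.545). Rounding alone allows -22.2 to 28.6% with ATRA and -14.8 to 38.1% with each of the others, so a change of EZH1 as large as the ATRA change of EZH2 was not detectable at this precision. The ratio of EZH2 to EZH1 was 6.0, 5.75 and 6.0 untreated, 5.0, 4.75 and 4.75 with ATRA, 3.4, 4.25 and 4.0 with palbociclib, and 4.25, 4.0 and 3.2 with the combination. The treated ratios lay below the untreated ones in every group, and a two-sided exact permutation test gave p = 0.1 for each treatment, the smallest that 3 libraries against 3 allow. With rounding alone, the ratio of a single library can lie between 5.0 and 7.0 untreated and between 4.11 and 5.86 with ATRA, which overlap. It can lie between 3.0 and 5.0 with palbociclib and between 2.82 and 5.0 with the combination. These ranges are for single libraries, and that of a group mean is narrower.

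The non-catalytic core subunits SUZ12 and EED followed EZH2 in direction. SUZ12, the scaffold, was at 28, 28 and 25 RPKM untreated, at 20, 25 and 23 with ATRA, at 16, 22 and 20 with palbociclib, and at 19, 22 and 20 with the combination. The ATRA libraries overlapped the untreated ones at 25 RPKM, those of the other treatments did not, and replicate 1 was lowest in each treated group. SUZ12 fell by 0.49 on the log2 scale with palbociclib (SE 0.120, limma adjusted p = 0.0474) and by 0.41 with the combination (adjusted p = 0.0252), and its ATRA value was -0.26 (adjusted p = 0.166). Leaving out 1 library at a time gave adjusted p = 0.0375 (without palbociclib replicate 2) to 0.162 (without untreated replicate 1) for palbociclib, under 0.05 in the first of these fits only. For the combination the range was 0.0333 to 0.0853, and the call was kept only without untreated replicate 3 or combination replicate 2. EED, the reader of the methyl mark, was at 7 RPKM in all untreated libraries and at 6 in all ATRA libraries. It was at 5, 6 and 5 with palbociclib and at 6, 5 and 5 with the combination, below untreated in every treated library but by only 1 or 2 rounding steps. EED fell by 0.39 on the log2 scale with palbociclib (SE 0.0936, limma adjusted p = 0.0437) and by the same 0.39 with the combination (adjusted p = 0.00952), and its ATRA value was -0.22 (adjusted p = 0.130). The palbociclib call of EED held only without palbociclib replicate 2 (adjusted p = 0.0250, against 0.107 to 0.125 without any other library), and the combination call held in all 6 fits.

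The histone-binding pair moved less. RBBP4 was at 28, 30 and 30 RPKM untreated, at 25, 28 and 27 with ATRA, at 23, 26 and 24 with palbociclib, and at 24, 25 and 24 with the combination. It fell by 0.27 on the log2 scale with palbociclib (SE 0.063, limma adjusted p = 0.0415) and by 0.27 with the combination (adjusted p = 0.00873), and the ATRA value, -0.14, did not pass (adjusted p = 0.155). The palbociclib call of RBBP4 held only without palbociclib replicate 2 (adjusted p = 0.0346, against 0.0639 to 0.118 without any other library). RBBP7 was at 30, 32 and 31 RPKM untreated, at 29, 28 and 25 with ATRA, at 26, 27 and 24 with palbociclib, and at 28, 25 and 23 with the combination, so that no treated library reached the untreated range. It fell by 0.29 with the combination (SE 0.0825, limma adjusted p = 0.0204, and 0.00713 to 0.0778 with 1 library left out, under 0.05 only without untreated replicate 1 or combination replicate 1). Its ATRA value was -0.18 (adjusted p = 0.149) and its palbociclib value -0.27 (adjusted p = 0.0978). The ratio of RBBP4 to RBBP7 was 0.946 ± 0.0188 (SD, n = 3) untreated, 0.981 ± 0.110 with ATRA, 0.949 ± 0.0589 with palbociclib and 0.967 ± 0.0975 with the combination, and two-sided exact permutation tests against untreated gave p = 0.7, 1.0 and 0.9.

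JARID2, an accessory subunit that helps to bring the complex to its targets, went the other way. It was at 7, 6 and 7 RPKM untreated and at 7, 7 and 8 with palbociclib. It was at 10, 11 and 12 with ATRA and at 10, 12 and 13 with the combination, and these 6 libraries lay above the other 6 with no overlap. JARID2 rose by 0.71 on the log2 scale with ATRA (SE 0.112, limma adjusted p = 0.00120), 65.0% above the untreated mean. It rose by 0.79 with the combination (adjusted p = 0.000397), 75.0% above it, and its palbociclib value was 0.14 (adjusted p = 0.606). The combination call at 0.001 remained only without combination replicate 1 (adjusted p = 0.000254), the other 5 fits with 1 library left out giving 0.00162 to 0.00264. In untreated cells JARID2 overlapped EED and AEBP2 in level. With ATRA it lay above both, and with the combination it overlapped PHF19.

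The other accessory subunits gave 1 call, a fall of PHF19 with the combination. AEBP2, the partner of JARID2 in the same form of the complex, was at 7, 7 and 5 RPKM untreated, at 5 in every ATRA library, at 6 in every palbociclib library, and at 5, 4 and 6 with the combination. None of its changes passed (log2 values -0.32, -0.06 and -0.34, limma adjusted p = 0.175, 0.880 and 0.123). This rests on single libraries: without untreated replicate 3, AEBP2 passed 0.05 with ATRA (-0.48, adjusted p = 0.0419) and with the combination (-0.50, adjusted p = 0.0263), and without combination replicate 3 it passed with the combination (-0.48, adjusted p = 0.0455). Over the 6 fits the AEBP2 value with the combination ran from -0.50 to -0.19, and with ATRA from -0.48 to -0.24. PHF19 was at 14, 13 and 14 RPKM untreated and at the same 3 values with ATRA. It was at 12, 13 and 12 with palbociclib and at 12 in all combination libraries. PHF19 fell by 0.19 with the combination (SE 0.0577, limma adjusted p = 0.0329), a call that remained only without untreated replicate 2 (0.0256, against 0.0589 to 0.0925 without any other library), and its palbociclib value was -0.15 (adjusted p = 0.209). MTF2 was at 17, 17 and 15 RPKM untreated, at 14, 15 and 14 with ATRA, at 12, 16 and 15 with palbociclib, and at 13, 15 and 14 with the combination. The MTF2 groups overlapped in each comparison and none of its log2 values passed (-0.19, -0.20 and -0.22, limma adjusted p = 0.245, 0.376 and 0.135).

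**Figure D2:**
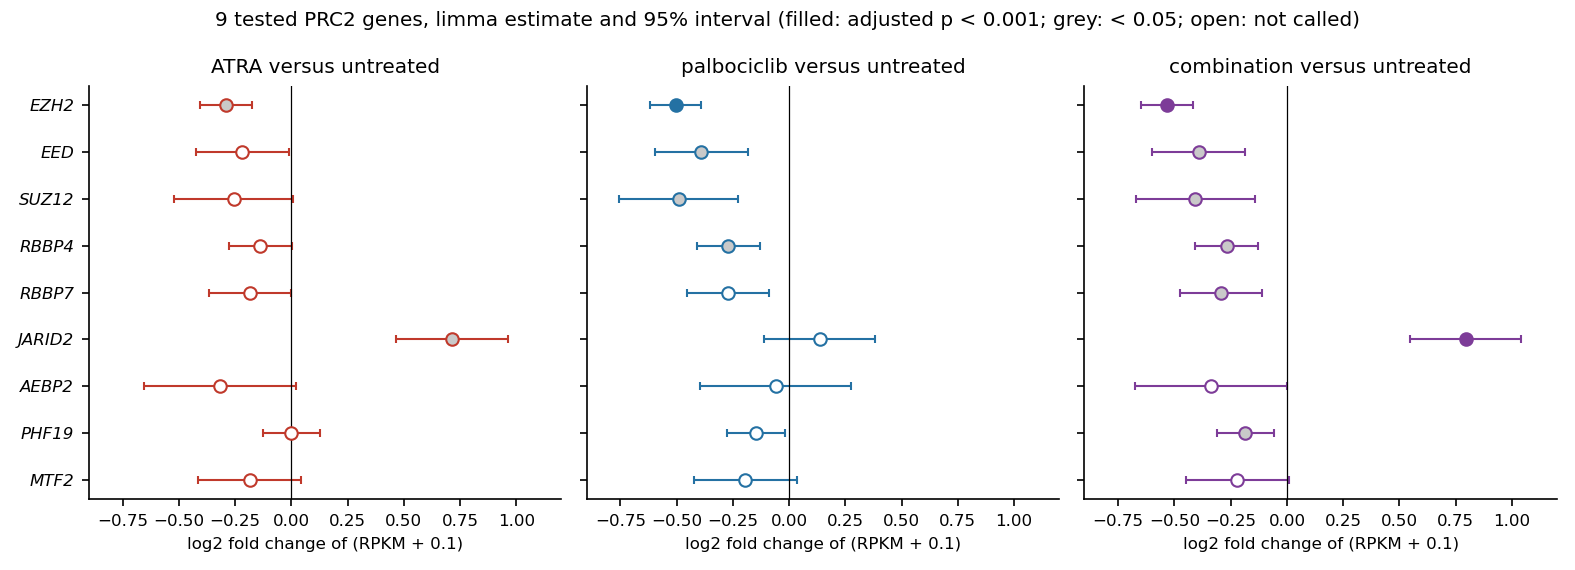
Log2 fold change of RPKM + 0.1 for each of the 9 tested members in 3 comparisons with untreated cells, with 95% confidence intervals from limma, coloured where the adjusted p was under 0.001, grey where it was under 0.05 and open otherwise. EZH2 lay below 0 against untreated cells in each treatment (-0.29, -0.50 and -0.53), and JARID2 lay furthest above 0 where ATRA was present (0.71 and 0.79).

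Counted over the 9 tested members, ATRA gave 1 fall (EZH2) and 1 rise (JARID2) at 0.05 and no call at 0.001. Over all tested genes 11.6% fell and 8.71% rose with ATRA at 0.05, and 1.94% fell and 2.77% rose at 0.001. Palbociclib gave 4 falls (EZH2, SUZ12, EED and RBBP4) and no rise at 0.05, where 3.16% of all genes fell and 0.908% rose, and 1 fall (EZH2) at 0.001, where 0.486% of all genes fell and 0.0128% rose. The combination gave 6 falls and 1 rise at 0.05, where 17.7% of all genes fell and 12.7% rose, and 1 fall (EZH2) and 1 rise (JARID2) at 0.001, where 4.28% fell and 3.76% rose. The share of members that fell was near the background with ATRA and above it with palbociclib and the combination. With palbociclib and with the combination, only the fall of EZH2 held at 0.05 under every alternative setting of the analysis. The median log2 fold change of the members was -0.19 with ATRA, -0.27 with palbociclib and -0.29 with the combination, against -0.01, 0 and -0.01 over all tested genes. These 3 comparisons share the untreated libraries. Libraries of the 2 groups did not overlap, with the treated ones lower, for 3 of the 9 members with ATRA (17.3% of all genes), 5 with palbociclib (9.48%) and 6 with the combination (20.6%). JARID2 was the 1 member higher without overlap with ATRA (12.4% of all genes) and with the combination (15.3%), and no member was with palbociclib (5.74%).

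The combination was set against each drug alone to ask what the second drug added. Added to ATRA, palbociclib was followed by EZH2 values of 17, 16 and 16 RPKM in place of 20, 19 and 19, with no overlap. EZH2 was lower in 3 of 3 pairs of libraries of the same number, as were SUZ12, RBBP4, RBBP7 and PHF19. The share of all genes lower in this way was not counted, so these pairs are a description. This is the contrast from which the study drew EZH2 and SUZ12 as lower. The EZH2 difference of -0.24 on the log2 scale (95% confidence interval -0.36 to -0.13) missed the threshold over all genes (limma adjusted p = 0.188). At 0.05, 0.115% of all tested genes passed in this comparison. Same-numbered libraries of the treated groups deviated from their group means together. When that number entered limma as a block, EZH2 passed 0.05 in the fit to all 12 libraries (adjusted p = 0.0368, where 0.639% of all genes fell) and in that to the 9 treated ones (adjusted p = 0.0191, where 1.75% fell). No other member passed in any of these fits, although in the blocked fit to the treated libraries 5 of the 9 members were lower at an unadjusted p under 0.05, where 9.67% of all genes were. PHF19 was the second member whose libraries did not overlap (12 in every combination library against 14, 13 and 14, log2 difference -0.19, adjusted p = 0.634), where 2.52% of all genes were lower without overlap.

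Added to palbociclib, ATRA raised JARID2 and no other member. JARID2 went from 7, 7 and 8 to 10, 12 and 13 RPKM, a log2 difference of 0.66 (SE 0.112, limma adjusted p = 0.00275), where 5.86% of all tested genes rose and 6.64% fell at 0.05 and 2.11% rose at 0.001. Its libraries did not overlap, as for 8.26% of all genes in that direction, and no member was lower without overlap, where 9.86% of all genes were. With the replicate block the JARID2 rise passed 0.001 as well (adjusted p = 0.000655 over 12 libraries, where 3.58% of all genes rose, and 0.000954 over the 9 treated ones, where 3.25% did). EZH2 differed by -0.03 between the combination and palbociclib alone (95% confidence interval -0.14 to 0.09, adjusted p = 0.827). EED differed by 0, RBBP4 by 0.00 and RBBP7 by -0.02, and SUZ12 was 0.08 higher (adjusted p = 0.781).

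The palbociclib difference of EZH2 was 7.0 RPKM without ATRA and 3.0 RPKM with it. Tested as a departure from additive log2 effects, EZH2 gave 0.26 (95% confidence interval 0.10 to 0.42), above 0 before adjustment and not after it (limma adjusted p = 1). SUZ12 gave 0.34 (95% confidence interval -0.04 to 0.71, adjusted p = 1). For 7 of the 9 members the departure was above 0, as it was for 47.7% of all tested genes, and the median was 0.16 against 0. For a member lower with each drug, a value above 0 means a combined change smaller than the sum of the single ones. No tested gene passed 0.05 for this term in limma, where 154 had a positive and 82 a negative departure at an unadjusted p under 0.05.

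Each drug effect was thus measured once without and once with the other drug, in sets of libraries that share none, although the treated libraries share the replicate deviations described above. For palbociclib, 8 of the 9 members were below 0 in both estimates, which held for 28.9% of all tested genes, and JARID2 was above 0 in both, as were 32.3% of all genes. EZH2 was the member whose libraries did not overlap in either estimate (1.98% of all genes were lower in this way). For ATRA, EZH2, RBBP7, AEBP2 and MTF2 were below 0 in both estimates (40.6% of all genes), and JARID2 was above 0 in both (35.1%). JARID2 was the member whose libraries did not overlap in either ATRA estimate, where 6.7% of all genes were higher in this way.

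**Figure D3:**
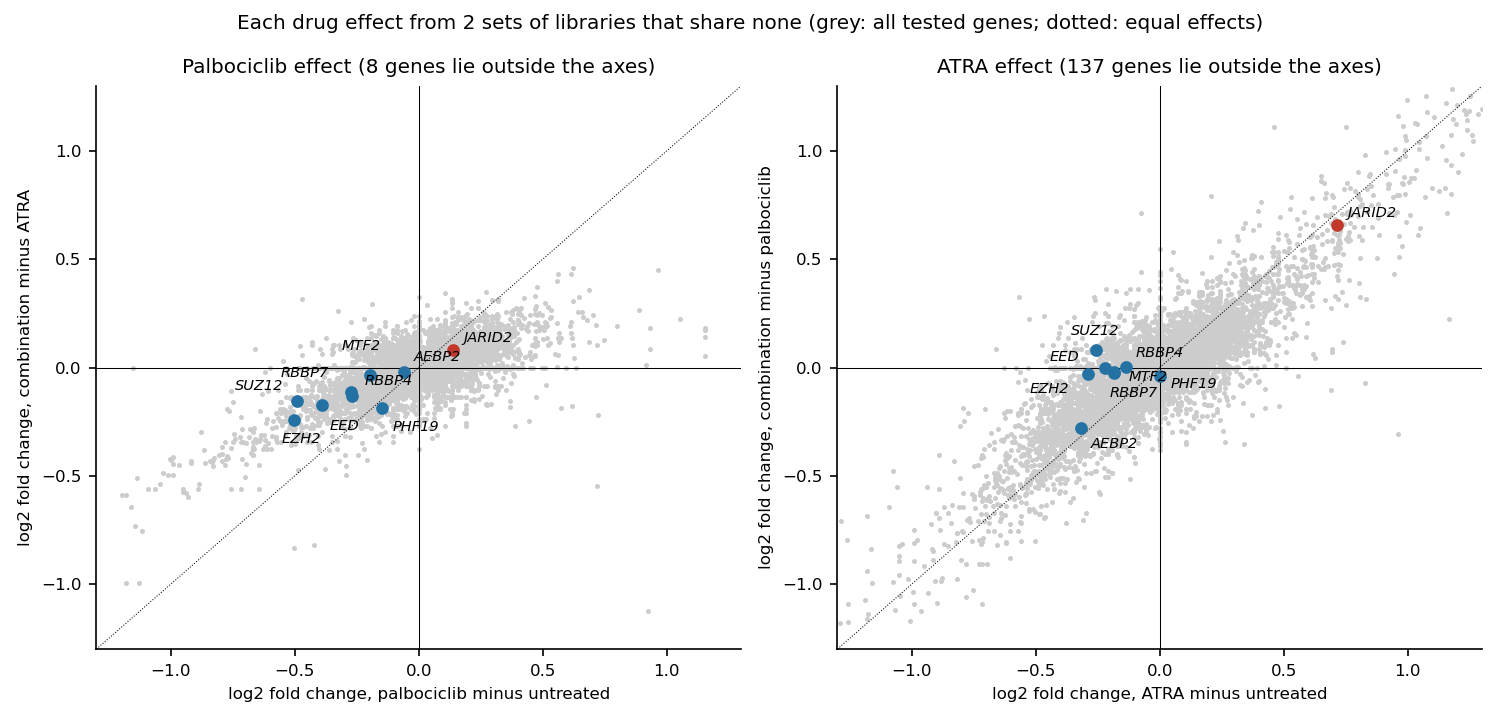
Log2 fold change of each drug without the other drug (horizontal axis) and with it (vertical axis), for all tested genes in grey and the 9 members in colour (JARID2 in red), with equal effects on the dotted line. In the palbociclib panel EZH2 lies at -0.50 and -0.24, and in the ATRA panel JARID2 lies at 0.71 and 0.66.

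The wider Polycomb machinery was read from lists of further genes. Polycomb repressive complex 1 (PRC1) binds the mark that PRC2 makes and places ubiquitin on histone H2A. Of 16 PRC1 core genes, 11 were tested, and 2 of these, CBX2 and BMI1, passed the filter on low values through their untreated libraries alone and are left out of the counts. Of the other 9, at 0.05, 2 fell with ATRA (11.6% of all genes), 1 with palbociclib (3.16%) and 3 with the combination (17.7%), with 1 rise in all (PCGF3 with the combination, 0.38, limma adjusted p = 0.0368). PCGF3 was near the filter value, at 5, 4 and 4 RPKM untreated and at 6, 5 and 6 with the combination, and these libraries overlapped. CBX2, a chromodomain subunit that binds the methylated histone, was at 5, 6 and 6 RPKM untreated, at 3 in every library of each single drug, and at 2 in every combination library. Its log2 values were -0.89 with ATRA, -0.89 with palbociclib and -1.45 with the combination. BMI1, a core subunit of canonical PRC1, was at 5 RPKM in each untreated library and at 3 or 4 in every treated one. Having passed the filter through the group where they were high, these genes had to differ, and their values are a description. CBX6, a relative of CBX2, was at 15, 14 and 12 RPKM untreated and at 12, 13 and 12 with palbociclib. With ATRA it was at 8, 7 and 8 and with the combination at 7 in each library, falls of 0.82 (adjusted p = 8.32e-05) and 0.95 (adjusted p = 2.21e-05). PCGF6, a subunit of a variant PRC1, was at 12, 11 and 11 RPKM untreated, 9, 9 and 8 with ATRA, 8, 7 and 7 with palbociclib and 8, 7 and 6 with the combination. It fell in all 3 treatments (-0.38, -0.62 and -0.70, limma adjusted p = 0.0248, 0.00789 and 0.000608). RNF2, a ubiquitin ligase subunit of PRC1, fell with the combination (-0.40, limma adjusted p = 0.0301), from 7, 7 and 6 RPKM to 5 in each library. Between the combination and palbociclib alone, CBX6 fell (-0.81, adjusted p = 0.000132).

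Of 12 PRC1 accessory genes, 7 were tested, and at 0.05 3 fell with ATRA, 1 with palbociclib and 3 with the combination, where 11.6, 3.16 and 17.7% of all genes fell. KDM2B, which brings a variant PRC1 to unmethylated CpG islands, was at 10, 10 and 9 RPKM untreated, 7 in every ATRA library, 9, 8 and 9 with palbociclib and 7, 6 and 7 with the combination. It fell by 0.46 with ATRA (limma adjusted p = 0.00256) and by 0.53 with the combination (adjusted p = 0.000665). SCMH1, a relative of the fly Polycomb protein Scm, was at 12, 10 and 11 RPKM untreated and fell by 0.34 with ATRA and 0.51 with the combination (limma adjusted p = 0.0217 and 0.00151). SCML2, of the same family, was at 7, 6 and 8 RPKM untreated and at 4 or 5 in every treated library, and it fell with ATRA, palbociclib and the combination (-0.57, -0.57 and -0.78, limma adjusted p = 0.0109, 0.0397 and 0.00126). Between the combination and palbociclib alone, KDM2B and FOXK2 fell by 0.38 each (limma adjusted p = 0.0111 and 0.0133). Of 8 genes of the PR-DUB complex, which removes ubiquitin from H2A, 7 were tested and FOXK2 was the 1 that fell against untreated cells, where 11.6% (ATRA), 3.16% (palbociclib) and 17.7% (combination) of all genes did, by 0.45 with ATRA and 0.58 with the combination (limma adjusted p = 0.00379 and 0.000480). The demethylase KDM6B, which removes the PRC2 mark, was at 3 RPKM in each untreated library, at 3, 4 and 4 with ATRA, at 4, 5 and 5 with palbociclib and at 3, 5 and 5 with the combination, and it passed neither threshold (limma adjusted p = 0.379, 0.114 and 0.0893). KDM6B passed the filter through its palbociclib and combination libraries only. The other PRC2 accessory genes were too low to test, with PHF1 at 3 to 5 RPKM and EPOP at 1 to 3.

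**Figure D4:**
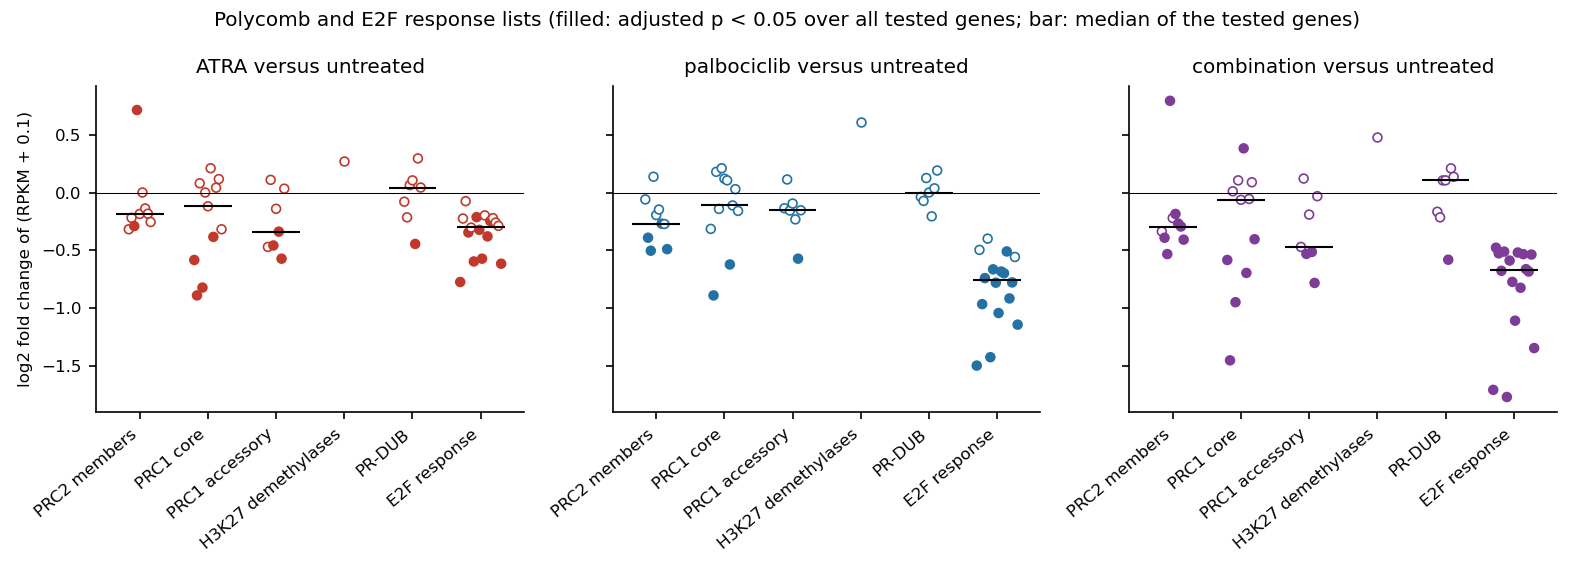
Log2 fold change against untreated cells of the tested genes of 6 lists, one point per gene, filled where the adjusted p was under 0.05, with a bar at the median of each list of more than 1 tested gene (CBX2 and BMI1 included). The E2F response genes lie furthest down with palbociclib (median -0.76), where the PRC2 members have a median of -0.27.

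The genes most like EZH2 over the libraries were sought next. Over the 12 libraries and among 4669 genes with a mean of at least 10 RPKM, the genes whose log2(RPKM + 0.1) values had the highest Pearson correlation with those of EZH2 were MCM7 (0.985), MCM4 (0.977), USP1 (0.971), MCM3 (0.968) and UNG (0.967). MCM3, MCM4 and MCM7 are subunits of the replicative helicase, UNG is a uracil-DNA glycosylase and USP1 a deubiquitinase of DNA repair. MCM7 had group means of 121, 102, 85.0 and 83.7 RPKM in the order untreated, ATRA, palbociclib and combination, the order also taken by EZH2. The points of such a correlation share 4 groups of libraries, so it describes shared group levels. For SUZ12 the most alike genes were E2F3 (0.962), RFC1 (0.959), KIF11 (0.959), NCAPH (0.953) and PATL1 (0.952). In these too replicate 1 was the lowest or level with the lowest of the ATRA and palbociclib groups. The choice of genes by their correlation with SUZ12 favours this trait.

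**Figure D5:**
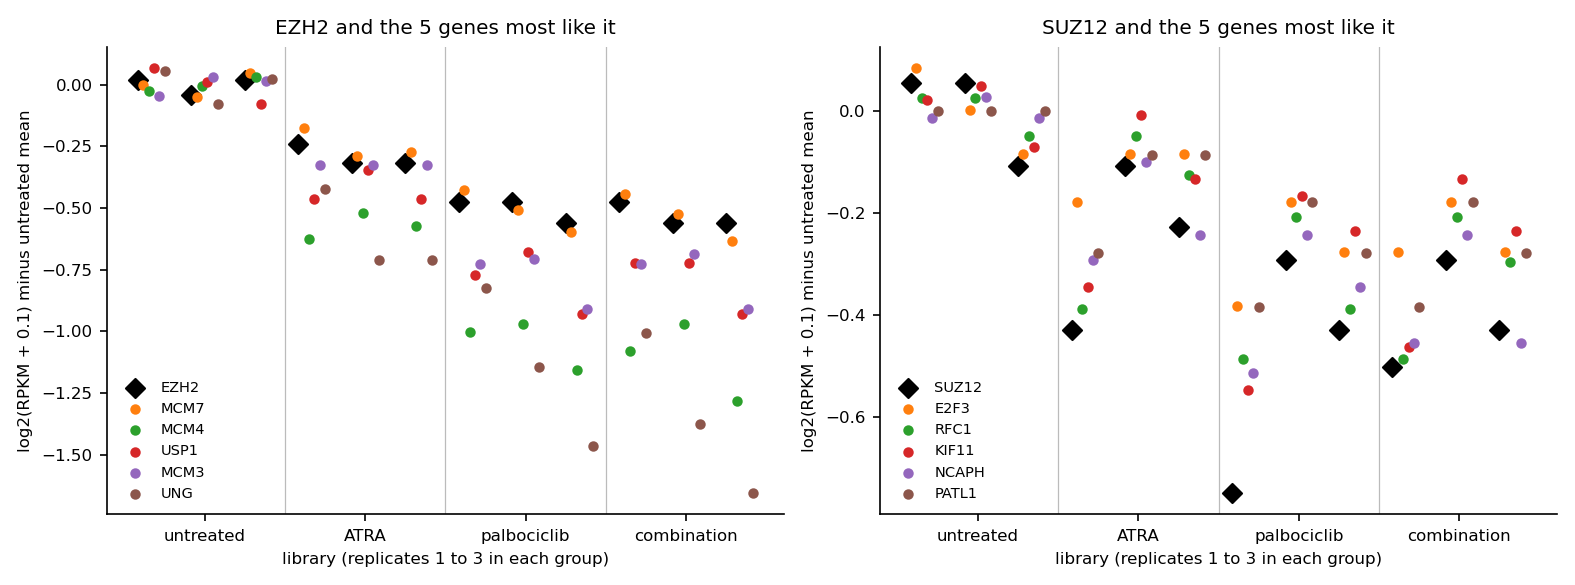
Log2(RPKM + 0.1) minus the untreated mean in each of the 12 libraries, for EZH2 (left) and SUZ12 (right) as black diamonds and the 5 genes most alike to each as coloured points. The EZH2 companions step down from untreated to ATRA to palbociclib, whereas in the ATRA and palbociclib groups replicate 1 is the lowest, or level with the lowest, of each SUZ12 companion. The companions were chosen by correlation, which favours both traits.

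A list of 18 textbook E2F response genes, chosen with earlier results of these data known, was kept beside the members. The study reported E2F1 among the genes lowered by palbociclib on top of ATRA in these same libraries. The counts of this list are therefore a description and not independent evidence. Of these, 16 were tested, and 9 fell with ATRA, 13 with palbociclib and 16 with the combination at 0.05, where 11.6, 3.16 and 17.7% of all genes fell. Their medians were -0.30, -0.76 and -0.67 on the log2 scale. E2F1 itself was at 14, 12 and 12 RPKM untreated, 9, 8 and 8 with ATRA, 5, 5 and 4 with palbociclib and 4, 4 and 3 with the combination. It fell by 0.60 with ATRA (limma adjusted p = 0.00837), by 1.43 with palbociclib (adjusted p = 0.000287) and by 1.77 with the combination (adjusted p = 5.45e-06). The falls of EZH2 were smaller than those of E2F1 in each treatment, a difference whose size was not tested. Between the combination and ATRA alone, 4 of the 16 fell at 0.05 in the fit without a block (0.115% of all genes) and 13 in the blocked fit to the 9 treated libraries (1.75%), with a median of -0.43. The retinoid response gene CEBPE, a transcription factor of granulocyte maturation, was at 34, 32 and 37 RPKM untreated, 116, 116 and 118 with ATRA, 48, 39 and 47 with palbociclib, and 131, 131 and 135 with the combination. Of the 10 retinoid response genes listed, 5 were tested, and CYP26A1, CYP26B1, RARB and TGM2 were at 0 RPKM in every library. DHRS3, HIC1 and CD38 were at 0 to 3 RPKM in every library without ATRA and at 8 to 50 in every library with it, and passed the filter through the latter alone. The part of these genes in the PRC2 values was not tested.

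The members lie at separate places in the genome (GENCODE v44, GRCh38), and all are protein-coding. EZH2 is at chr7:148807257-148884321 on the minus strand, SUZ12 at chr17:31937007-32001038 on the plus strand, EED at chr11:86201212-86278813 on the plus strand and JARID2 at chr6:15246069-15522042 on the plus strand. EZH1 shares chromosome 17 with SUZ12, at chr17:42700275-42745049 on the minus strand. Several members have copies or neighbours that could share reads. The SUZ12 pseudogene SUZ12P1 was at 7, 8 and 7 RPKM untreated, 6, 7 and 6 with ATRA, and 5, 6 and 6 with palbociclib and with the combination, and the SUZ12 value is uncertain by reads that the counting could not split between them. EZH2P1 was at 0 to 1 RPKM, RBBP4P1 at 3 to 5 and RBBP4P2 at 2 to 3. In that annotation RBBP4 shares 22.8% of its exonic bases with SYNC on the other strand, which was listed at 0 in every library, and RBBP7 shares 2.44% with TXLNG on the other strand (11 to 20 RPKM). The library kit is not stated to mark strand, so reads of the 2 strands cannot be told apart.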

How the data were processed

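RNA from 12 HL-60 libraries (Quick-RNA Miniprep, TruSeq polyA preparation) was, per the labels, aligned to hg38 with HISAT2 and counted with HTSeq, at default settings per the methods. Versions, annotation and gene lengths are not given in the sources used here. The authors deposited RPKM values rounded to whole numbers, which are treated here as a score and not as counts, so the table gives no depth per library (the methods give a mean over samples only) and no counting interval is given. The rounded values summed to 358455 to 390247 per library. Replicates were not duplicates, since 5.13 to 14.3% of values were identical between replicates over 2281 genes at 20 RPKM or more.

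limma 3.58.1 (R 4.3.3, with a variance trend) modelled log2(RPKM + 0.1) in the 4 groups together, without covariates, for genes with at least 5 RPKM in at least 3 libraries (7820), with Benjamini-Hochberg adjustment over all of them. An adjusted p under 0.001, the false discovery rate printed with the study's heat map of these libraries, was the main threshold and 0.05 the second. Scripts were tested on simulated data. The genes named are the 10 members, their copies and overlapping genes, the Polycomb genes with a call at 0.05, the genes that check treatment or cell type, and the 5 genes most like EZH2 and SUZ12. KDM6B, PHF1 and EPOP were named after their values were seen. Members, lists and tests were chosen with earlier results of these data known.

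Alternatives changed the filter, pseudocount, scaling, variance trend, threshold, libraries and replicate block. Replicate numbers were checked by correlating deviations from group means of same-numbered libraries: 9 of 9 pairs among treated groups were over 0.1 (0.438 to 0.908) and 6 of 9 pairs with untreated libraries were (0.0453 to 0.367). The numbers were therefore taken to pair the treated libraries only. Whether the untreated libraries were handled together with the treated ones is not stated. A shift shared by all treated groups cannot be told apart from a difference in handling. Promoter windows came from RefSeq (GRCh38.p14).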

Additional observations from a re-analysis of the deposited data

How the results depend on the processing

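The number of members called at an adjusted p under 0.001 was 0 with ATRA, 1 with palbociclib and 2 with the combination against untreated cells, and 0 for the combination against either drug alone. At 0.05 it was 2, 4 and 7, and 1 for the combination against palbociclib. For ATRA the count was 1 with the filter at 1 RPKM, at 10 RPKM or with none, 1 with median scaling and 2 with the replicate block. With the filter at 1 RPKM the member called was EZH2 (limma adjusted p = 0.000903). JARID2 entered the fit at 10 RPKM only through its libraries with ATRA (10 to 13 RPKM, against 6 to 8 in the others). Its values in that fit are therefore a description. For palbociclib it was 0 with median scaling and 0 with only the libraries of the 2 groups, and 0 to 0 with 1 library left out. For the combination against untreated cells it was 1 with the filter at 1 RPKM or none, 1 with median scaling, 0 with only the libraries of the 2 groups, and 1 to 2 with 1 library left out. For the combination against palbociclib it was 1 with median scaling and 1 with the replicate block over 12 or over 9 libraries. The cause of these changes was not tested. Median scaling moved the median of all genes by at most 0.08 (log2).

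The replicate block at 0.05, an alternative chosen after seeing the data, gave 5, 5 and 7 members against untreated cells (35.4, 13.6 and 45.2% of all genes) and 1 for the combination against each drug, over 12 or 9 libraries. Against untreated cells the numbers pair the libraries only weakly and unevenly (correlations of 0.0453 to 0.367, over 0.1 in 6 of 9 pairs). There the block gave adjusted p = 0.000626 (EZH2) and 0.000310 (JARID2) with ATRA and 0.000612 (RBBP4) with the combination.

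Directions turned only for values that passed no test. AEBP2 with palbociclib was 0.0165 with median scaling and -0.22 to 0.0197 with 1 library left out. Between the combination and ATRA, AEBP2 was 0.0193 and MTF2 0.0028 with median scaling, and leaving out 1 library gave -0.16 to 0.13 for AEBP2, -0.086 to 0.0165 for MTF2 and -0.002 to 0.19 for JARID2. Between the combination and palbociclib, leaving out 1 library gave -0.0473 to 0.18 for SUZ12, -0.038 to 0.0501 for RBBP4, -0.096 to 0.0453 for RBBP7 and -0.15 to 0.0585 for MTF2. For the departure from additivity it gave -0.14 to 0.0493 for JARID2 and -0.0975 to 0.20 for AEBP2. Over all alternatives, the adjusted p of EZH2 ranged from 0.000626 to 0.0740 with ATRA, 6.31e-05 to 0.0260 with palbociclib and 1.36e-05 to 0.00218 with the combination, and was 0.0191 to 0.986 for the combination against ATRA. That of JARID2 ranged from 0.000134 to 0.00949 with ATRA, 2.87e-05 to 0.00972 with the combination, and 0.000536 to 0.0326 for the combination against palbociclib. These JARID2 ranges include the fit with the filter at 10 RPKM, which JARID2 entered through its libraries with ATRA only. At 0.05 the fall with palbociclib was kept in 7 of 15 alternatives for EED, 5 of 16 for SUZ12 and 7 of 16 for RBBP4. The fall with the combination was kept in 14 of 15 for EED and 15 of 16 for RBBP4. SUZ12 kept it in 9 of 16, RBBP7 in 11 of 16 and PHF19 in 10 of 16. Rounding to whole numbers limits EZH1, EED, JARID2 and AEBP2 most.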
